A study of Homo sapiens with 12 samples.

Results

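The unmodified and modified regions of the genome of line 769, a clear cell renal cell carcinoma line, were mapped from 3 HpaII libraries and the 3 MspI libraries made from the same DNA samples. These 6 libraries were chosen by the line, the enzyme and the DNA sample named in the labels, out of 12 libraries in the series. Of the DNA samples of 769, 1 was an untreated control and the other two came from cells given AA, which the title of the series identifies as ascorbic acid, a cofactor of TET dioxygenases. These are called AA sample 1 and AA sample 2. The labels give no dose, time or clone, and do not say whether the AA samples are separate cultures, so a p-value here reflects how far these samples spread, which may be technical. The other 6 libraries, from 1 control and 2 AA samples of line 786, served only to show where 769 differed.

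Vertebrate DNA is methylated mainly at CG dinucleotides, and stretches dense in CG at gene starts, the CpG islands, are usually kept free of it. The restriction enzyme HpaII is blocked at a CCGG site whose inner cytosine is methylated or hydroxymethylated, marks it does not tell apart, whereas MspI cuts regardless and so counts the sites that are there. The HELP-tagging assay sequences a short tag beside each cut. The value used throughout is the ratio of a region's share of the nuclear HpaII tags to its share of the nuclear MspI tags in the same DNA sample. A ratio of 1 is the genome-wide mean of that sample, a high ratio marks unmodified sites, and a ratio near 0 marks sites that HpaII left uncut. The copy number of a region enters both shares.

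The nuclear HpaII tags numbered 5050658 in the control, 6220286 in AA sample 1 and 2662391 in AA sample 2, against 11431291, 5011329 and 3472351 MspI tags. AA sample 1 listed HpaII tags at 279974 sites, against 107494 in the control and 136539 in AA sample 2, so its HpaII library reached more sites than the other two. It had 22.7 HpaII tags per listed site, against 47.9 in the control and 19.9 in AA sample 2. Since no molecular identifiers were used before the PCR, tag counts overstate the number of independent molecules. Thinning the libraries of each enzyme to equal numbers of tags is among the alternatives given at the end. What part the unequal number of sites reached has in the results was not tested. In line 786 the control HpaII library held 189704 tags in all, the fewest of the series.

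Gene starts were placed on the hg19 site map of the files by the spacing of the CCGG sites in their RefSeq promoter windows, which run from 250 bases before to 50 bases after the start. At least 4 matching listed sites were required, so only starts rich in CCGG could be placed. Of all 35116 windows, 63.1% held at least 1 CCGG and 23.7% held at least 4. The placed starts are therefore a sample of CG-dense promoters. The 3 windows printed here were chosen because their sites show the 3 patterns described below. That of UTF1 was unmodified in 769 and not in the AA samples of 786. That of BNC1, at its second start, was modified in 769 and had no HpaII tag in 786. That of RAB34 was modified in 769 and not in the AA samples of 786. The sequences are those of RefSeq in build GRCh38.p14, read 5′ to 3′ on the strand of the gene, with each CCGG site in capitals. They come from chr10:133229967-133230266 on the plus strand, chr15:83284615-83284914 on the minus strand and chr17:28717819-28718118 on the minus strand.
UTF1: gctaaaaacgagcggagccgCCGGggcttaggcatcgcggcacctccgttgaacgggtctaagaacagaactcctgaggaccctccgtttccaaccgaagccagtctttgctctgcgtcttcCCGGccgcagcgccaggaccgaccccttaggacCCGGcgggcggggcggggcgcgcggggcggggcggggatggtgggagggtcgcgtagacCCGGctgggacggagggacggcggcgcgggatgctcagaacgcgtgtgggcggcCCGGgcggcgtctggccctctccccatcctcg
BNC1 start 2: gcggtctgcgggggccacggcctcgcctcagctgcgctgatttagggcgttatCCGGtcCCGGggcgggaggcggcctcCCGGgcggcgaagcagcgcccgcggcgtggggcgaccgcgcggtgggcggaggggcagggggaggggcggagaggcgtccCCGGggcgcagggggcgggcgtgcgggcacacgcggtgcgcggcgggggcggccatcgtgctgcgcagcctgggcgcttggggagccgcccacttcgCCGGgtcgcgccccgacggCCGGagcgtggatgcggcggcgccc
RAB34: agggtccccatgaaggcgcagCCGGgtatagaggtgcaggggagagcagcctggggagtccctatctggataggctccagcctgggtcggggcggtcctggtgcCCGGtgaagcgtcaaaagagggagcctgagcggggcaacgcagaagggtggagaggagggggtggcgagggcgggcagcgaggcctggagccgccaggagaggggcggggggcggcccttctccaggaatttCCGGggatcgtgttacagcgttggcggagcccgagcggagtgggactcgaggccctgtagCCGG

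The UTF1 window, upstream of a transcription factor of pluripotent cells, held 5 CCGG sites, all of them listed in the files. Over these 5 sites the 769 control had 317 HpaII tags and 189 MspI tags, AA sample 1 had 277 and 57, and AA sample 2 had 160 and 93. In 786 the same sites gave 1, 0 and 1 HpaII tags against 105, 55 and 91 MspI tags in the control, AA sample 1 and AA sample 2. The 786 control held 160231 nuclear HpaII tags against 8323623 MspI tags. Its HpaII counts in this and the other windows are thus weak evidence, and its UTF1 ratio within 1 kb was 0.822. The site 18 bases after the start, the last one in the printed window, carried 205, 100 and 93 HpaII tags in the 3 samples of 769, and 0, 0 and 1 in those of 786. The BNC1 window, at the second start of a gene for a zinc finger factor of keratinocytes and germ cells, held 6 CCGG sites, of which 5 were listed. They gave 0, 1 and 0 HpaII tags against 126, 26 and 37 MspI tags in 769, and no HpaII tag against 18, 1 and 31 MspI tags in 786. The MspI tags were concentrated at single sites. The site 88 bases before the start held 121, 1 and 37 of those of 769. In 786 AA sample 2 the site 28 bases after the start held 26 of 31. The MspI tags of 786 are few, so the absence of HpaII tags there is weak evidence. At RAB34, which encodes a small GTPase of the secretory pathway and the primary cilium, the 4 listed sites gave 0, 3 and 0 HpaII tags against 46, 37 and 37 MspI tags in 769, and 0, 224 and 41 against 91, 55 and 28 in 786.

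With sites grouped by density, the ratio of a group was above 1 where sites were dense and below 1 where they were isolated, in each sample of 769. These are values of whole groups and do not give the state of each site. Among sites that were alone in their kilobase, the ratio was 0.115 in the control, 0.330 in AA sample 1 and 0.364 in AA sample 2. It was still below 1 in all 3 at 6 to 7 sites per kilobase, with 0.728, 0.914 and 0.834. At 8 to 10 sites it was above 1, with 1.45, 1.48 and 1.40, and at 21 to 30 sites it reached 4.39, 2.69 and 2.50. The control was thus lowest at the sparse end and highest at the dense end. Above 30 sites per kilobase, a class of 1005 listed sites, the ratio rose no further and was 4.33, 2.49 and 2.26.

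**Figure D1:**
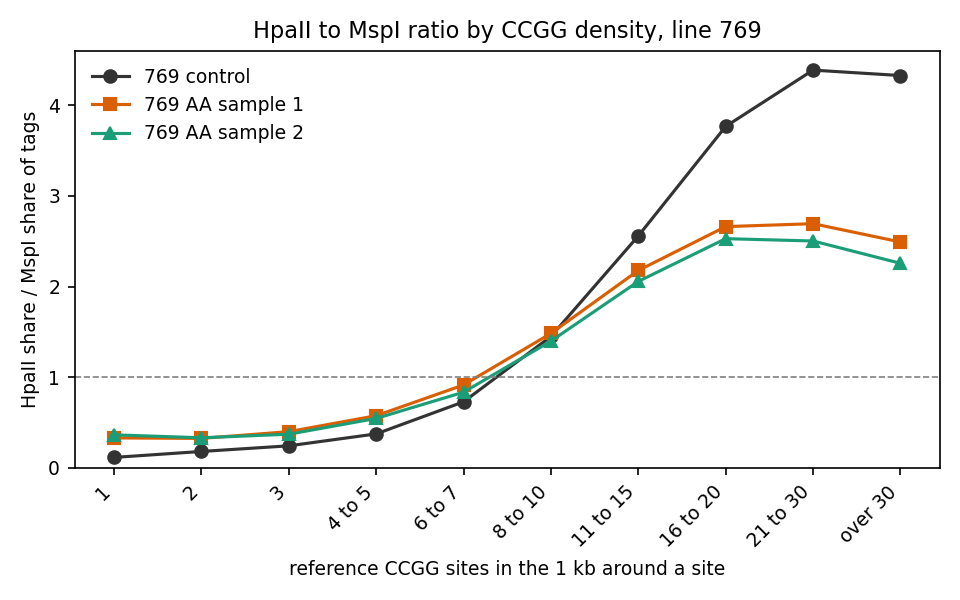
Ratio of HpaII to MspI tag shares (vertical axis) by the number of reference CCGG sites in the 1 kb around a site (horizontal axis), with 1 line per DNA sample of 769 and the genome-wide mean of 1 dashed. All 3 lines pass 1 between the classes of 6 to 7 and 8 to 10 sites.

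The same gradient was present in the presence or absence of HpaII tags at single sites. At the 35727 sites covered by 10 or more MspI tags in every sample, 34.4% had no HpaII tag in any sample and 20.4% had one in all 3. Of the 5921 such sites with 1 or 2 sites in their kilobase, 48.8% had none in any sample and 3.95% had one in all 3. Of the 2737 sites with 16 or more in their kilobase, 6.25% had none and 61.2% had one in all 3. The ratio of the single site was at least 1 in all 3 samples at 654 of these 2737, or 23.9%, against 6.34% of all 35727. Most dense sites were thus not above the mean in every sample.

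Located promoters were mostly at or above the genome mean in all 3 samples. Of 6256 located starts of 6074 genes, 4100 starts had enough MspI tags for at least 30 HpaII tags to be expected at the genome mean in each sample, and only these were classed. Starts that shared listed sites, such as divergent gene pairs, fell together into 3461 separate regions. The ratio was at least 1 in all 3 samples at 3119 starts, or 76.1%, in 2608 regions, and these are called unmodified. At a limit of 2, 1716 starts, or 41.9%, were so in all 3. It was at most 0.1 in all 3 at 50 starts, or 1.22%, in 47 regions, and these are called modified. Another 41 starts lay between these limits in all 3 samples and 890, or 21.7%, fell on different sides of a limit in different samples. The median ratio over all 4100 starts was 3.25 in the control, 2.81 in AA sample 1 and 2.40 in AA sample 2. The ranking of promoters was not close between samples, with Spearman's rho across starts from 0.28 to 0.31, against 0.73 to 0.77 across 100 kb bins. Starts are not independent replicates, and both libraries of a sample share its depth.

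**Figure D2:**
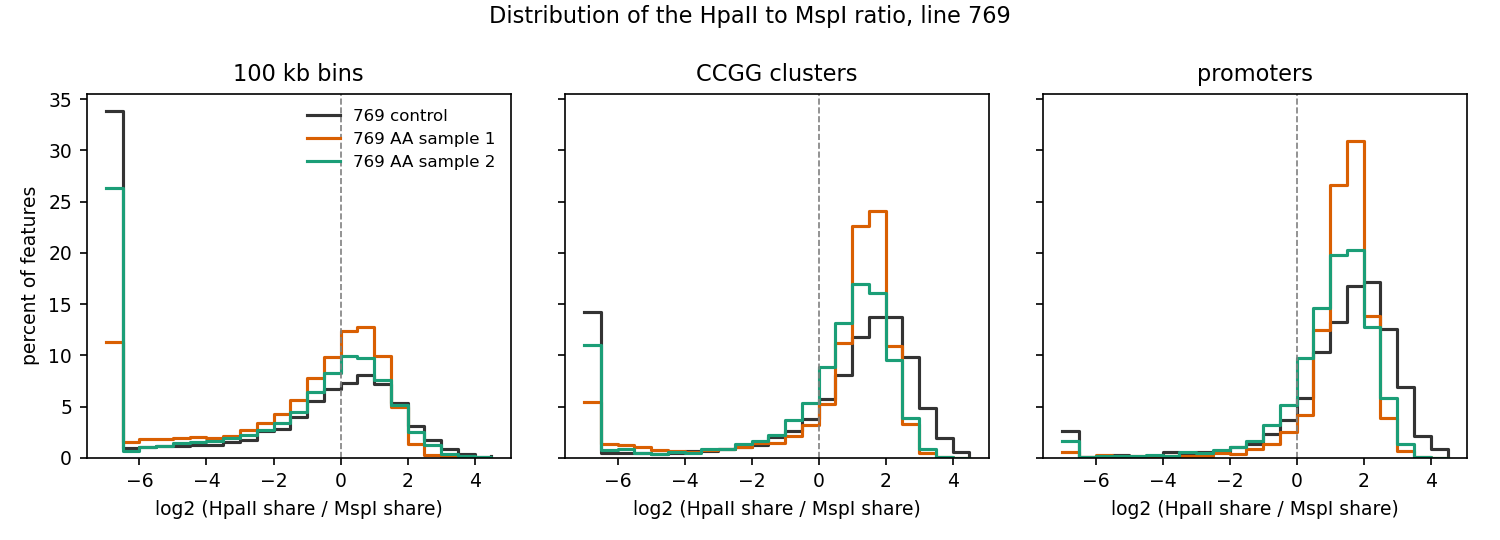
Percent of features (vertical axis) by log2 ratio of HpaII to MspI tag shares (horizontal axis, steps of 0.5) for 18032 tested bins of 100 kb, 7549 CCGG clusters and 4100 promoters, with 1 line per DNA sample of 769. The leftmost step holds ratios of 0 and all ratios below the axis, which were 33.8% of the bins but 2.63% of the promoters in the control.

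An edgeR quasi-likelihood test with the DNA sample as a block was run over 5789 starts. It called 3261 of them, or 56.3%, above the genome mean and 120, or 2.07%, below it at an adjusted p under 0.05. Of the 3119 unmodified starts, 2506 were called above the mean, and all 50 modified starts were called below it. The classes were cut on the same counts that the test uses, so these numbers are no separate support for them. Without AA sample 1 the number above the mean was 2005. These directions are against the mean of the whole genome. With TMM scaling, which centres the promoters on each other, the median log2 difference over starts went from 1.51 to -0.02, and 3 starts were above and 139 below.

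The 10 unmodified starts with most MspI tags had ratios from 1.26 to 5.91. At SQSTM1, the gene of the autophagy receptor p62, the first start had 1604, 1873 and 803 HpaII tags against 1412, 553 and 399.5 MspI tags in the control, AA sample 1 and AA sample 2, which are ratios of 2.57, 2.73 and 2.62. The samples lay close together there, and the log2 difference was 1.40 ± 0.27 (SE, 3 pairs, edgeR adjusted p = 0.00101). The start of MGAT4B, which encodes an enzyme of N-glycan branching, shares most of these sites and had ratios of 2.58, 2.40 and 2.96. GPS1, a subunit of the COP9 signalosome, and RFNG, a glycosyltransferase that modifies Notch receptors, are likewise a pair that shares its sites, and GPS1 had 3.17, 3.22 and 3.10. IRF2BP2, a transcriptional corepressor, had 4.24, 2.95 and 5.91. ANTKMT, a lysine methyltransferase of the mitochondrial adenine nucleotide carrier, had 2.11, 2.29 and 2.45, and CHTF18, a subunit of an alternative clamp loader of DNA replication, had 1.73, 2.29 and 1.52. The lncRNA start MIR663AHG had 2.78, 2.12 and 1.98, with counts that are not whole numbers. MGAT1, which starts the synthesis of complex N-glycans, had 1.32, 1.70 and 1.40, and LOC124905045 had 1.70, 1.26 and 1.66. Both MGAT1 and LOC124905045 were above 1 in each sample but did not pass the test (edgeR adjusted p = 0.172 and 0.117).

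The 50 modified starts were nearly empty of HpaII tags. The control had none at 41 of them, AA sample 2 had none at 42 and AA sample 1 had none at 9. At 7 starts there was no HpaII tag in any sample. The tags of AA sample 1 gave the highest of the 3 ratios at 36 of the 50. By type 25 were protein-coding and 25 were lncRNA starts, or 50% each, while 82.1% of the unmodified starts and 80.7% of all classed starts were protein-coding. Transcripts named as antisense to another gene made up 7 of the 50, against 179 of all 4100 classed starts, or 4.37%.

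Among the modified starts with most MspI tags, LINC02138 had 0, 64 and 10 HpaII tags against 925, 571 and 553 MspI tags, which are ratios of 0, 0.0903 and 0.0236. AA sample 1 was just inside the limit there, and the log2 difference was -5.27 ± 0.77 (SE, 3 pairs, edgeR adjusted p = 0.000705). The second start of EPS8L2, an actin regulator, had 2, 8 and 0 HpaII tags against 600, 255 and 165 MspI tags. LRRK1-AS1 had 0, 1 and 0 against 505, 124 and 122, and LOC124903622 had 0, 4 and 0 against 349, 174 and 100. SH3BP2 start 3, of a signalling adaptor gene, had 0, 2 and 0 against 337, 176 and 65, and SBNO2, a helicase family member, had 0, 2 and 0 against 227, 213 and 83. C1QTNF12, which encodes a secreted protein, had 0, 20 and 0 against 217, 174 and 119, so its tags came from AA sample 1 alone. LINC02564 had 0, 8.53 and 0 against 287.7, 136 and 172, and TPTE2, a phosphatase gene with a close paralog, had 1.5, 12.5 and 2 against 283, 133 and 126.5. The counts of LINC02564 and TPTE2 are not whole, as those of tags with several alignments are, so their placement is uncertain. BNC1-AS1, which shares sites with BNC1, had 0.5, 3 and 0 against 302, 140 and 106.

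Of the other modified starts, 7 are given as examples picked after their values were seen. HSF5, a heat shock factor family member of spermatocytes, had 0 HpaII tags in all 3 samples against 261, 111 and 84 MspI tags. With a floor of 3 tags per library this is 33.6-fold below the genome mean, a value that depends on the floor. TCP11, a gene of sperm function, had 0, 3 and 0 against 117, 52 and 50. PRSS21, the serine protease testisin, had 0, 5 and 0 against 68, 96 and 49.5. SLC2A14, a glucose transporter with a near-identical paralog, had 0, 5 and 1 against 89.5, 97.5 and 46. TUBA3D, an alpha tubulin that also has near-identical copies, had 0 in all 3 against 95.5, 24.5 and 69. SAP25, a subunit of a histone deacetylase complex, had 0 in all 3 against 305.5, 113 and 42, or 28.3-fold below the mean at that floor. ALOX12, the 12-lipoxygenase gene, had 0, 1 and 0 against 172, 108 and 40.

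Alternative starts of the same gene differed in 4 genes, with a modified start in one place and an unmodified one in another. In EPS8L2 the first start had ratios of 2.94, 3.23 and 2.61, while the second, described above, had 0.00754, 0.0253 and 0. The first start of TACC2, a gene of a coiled-coil centrosomal protein, had 4.79, 1.66 and 2.92, and its second had 0.0162, 0.00391 and 0. NR2F1-AS1 had 0, 0.0149 and 0 at its first start and 9.62, 4.87 and 3.28 at start 3. LINC02609 had 0, 0.0107 and 0 at its first and 3.54, 2.49 and 5.19 at its second. Both located starts of BNC1 were modified, with 0, 0.0224 and 0 at the first and 0.00577, 0.0257 and 0 at the second. Their surroundings overlap and share listed sites, so they are not separate observations. PAX6, the paired-box factor of eye and pancreas, had 0 HpaII tags in all 3 at its first start and 0.778, 0.825 and 0.133 at its second.

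The ratio around unmodified starts was high at the start and below 1 beyond 2 kb on either side, with 0.93, 0.91 and 0.95 between 2 and 3 kb before it and 0.84, 0.75 and 0.72 after it. In the 500 bases before the start it was 4.54 in the control, 3.08 in AA sample 1 and 2.98 in AA sample 2. Between 3 and 4 kb after the start it was 0.51, 0.56 and 0.59, and between 3 and 4 kb before it was 0.64, 0.70 and 0.57. Around modified starts the ratio was 0.00, 0.03 and 0.01 in the 500 bases before the start, and it varied farther out. It was 0.37, 0.54 and 1.94 between 1.5 and 2 kb before the start, 0.82, 1.41 and 1.24 at that distance after it, and 0.44, 0.58 and 0.38 between 2 and 3 kb after it. Sites within 1 kb set the class and the values there are no finding, whereas those farther out were not used for it.

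**Figure D3:**
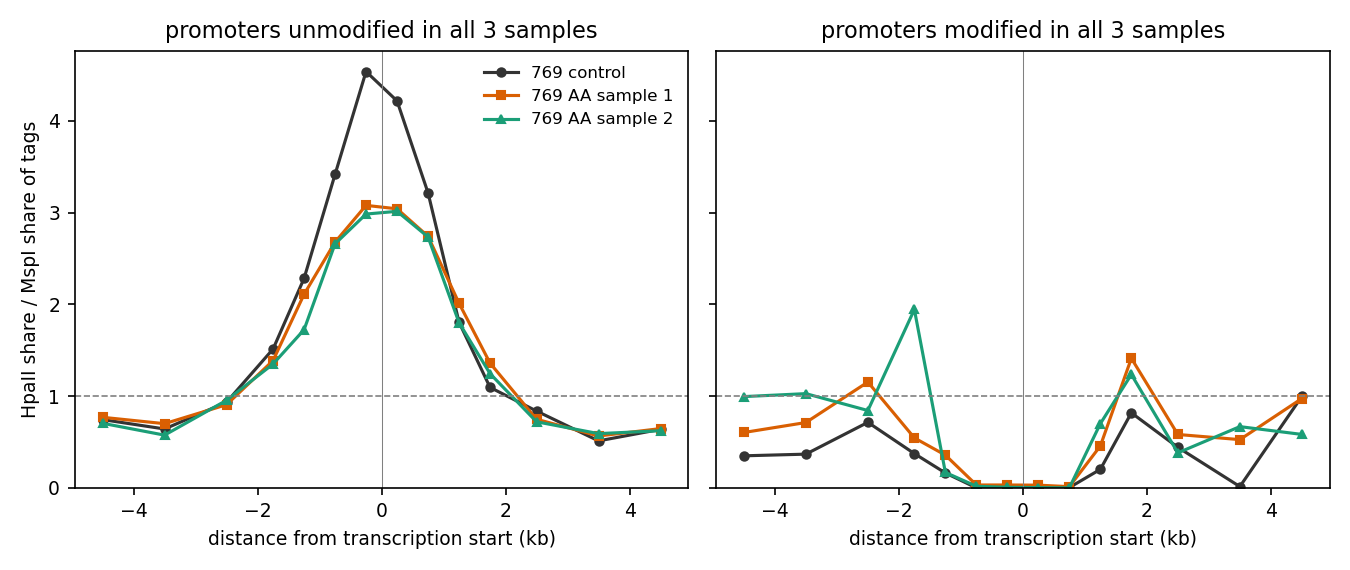
Ratio of HpaII to MspI tag shares (vertical axis) by distance from the transcription start in kb (horizontal axis), for 3119 unmodified (left) and 50 modified starts (right), with 1 line per DNA sample of 769. Left of the start the unmodified set falls from 4.54 to 0.64 in the control within 4 kb, and the modified set stays near 0 for about 1 kb on either side.

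Genes were also read from 14 lists, of which only CCGG-rich starts could be placed. In the hypoxia pathway, which clear cell carcinoma is known to activate, 16 of 41 genes were located and 12 of 13 classed starts were unmodified and none was modified, against 76.1% and 1.22% of all classed starts. Their median ratios were 2.80, 3.44 and 1.93, and 11 of 17 tested starts were above the mean by edgeR, against 56.3% of all starts. HK1, a hexokinase, had 4.28, 3.44 and 3.56, SLC2A1, the glucose transporter GLUT1, had 4.46, 2.56 and 1.53, EPAS1, the gene of HIF-2α, had 2.02, 1.94 and 1.86, and EGLN1, a HIF prolyl hydroxylase, had 1.36, 4.48 and 3.99. LOX, the lysyl oxidase gene, had 0.533, 1.77 and 2.05, so its control lay below 1. Of the unmodified starts named here, EPAS1 did not pass the test (edgeR adjusted p = 0.0546).

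The list of writers and erasers of DNA methylation also holds proteins that bind CG and metabolic enzymes, among them IDH1, D2HGDH and SDHA. Of its 34 genes 11 were located, and 9 of 11 classed starts were unmodified, against 76.1% of all. The counts are thus of the whole list, with medians of 2.16, 2.89 and 3.75. CXXC5, a zinc finger protein that binds unmethylated CG, had 1.72, 2.86 and 6.20, and the first start of KDM2B, a histone demethylase that does so too, had 3.72, 2.32 and 4.89. Both starts of TET3, a 5-methylcytosine dioxygenase, were unmodified, with 1.24, 1.54 and 1.73 at the second, which did not pass the test (edgeR adjusted p = 0.266). The starts of DNMT3A, a de novo methyltransferase, differed: the second had 4.77, 3.63 and 2.23, and the first had 0, 0.0187 and 0.229, for which the edgeR adjusted p was 0.014. IDH1 had 2.16, 2.96 and 0.994, just under 1 in AA sample 2. By edgeR 8 of 14 tested starts of the list were above the mean, a share near the 56.3% of all starts, and 1 was below.

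Genes of renal carcinoma that are known targets of promoter methylation or mutation were mixed. Of 46 genes 12 were located, and of 9 classed starts 4 were unmodified and 2 were modified. The other 3 fell on different sides of a limit in different samples. The medians over the 9 were 1.26, 2.56 and 0.928. By edgeR 3 of 11 tested starts were above the mean and 4 were below, against 56.3% and 2.07% of all starts. Both modified starts were those of BNC1, which share listed sites and are also counted as 2 of the 4 below the mean. GREM1, a secreted BMP antagonist, had 0.125, 0.906 and 0.0912. GSTP1, a glutathione transferase, had 0, 0.459 and 0.344. Both were below 1 in all 3 samples and passed the test below the mean (edgeR adjusted p = 0.0207 and 0.0474). DAPK1, a pro-apoptotic kinase, had 5.62, 2.58 and 2.81, and FBN2, which encodes fibrillin 2, had 5.20, 3.63 and 4.74.

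Developmental transcription factors covered the whole range. Of 118 genes 29 were located, and 11 of 24 classed starts were unmodified, 3 were modified and 2 were intermediate. The other 8 fell on different sides of a limit in different samples. The medians over the 24 were 1.38, 1.68 and 1.13. The modified ones were both starts of BNC1, which share listed sites, and the first start of PAX6. LHX4, a LIM homeobox factor of the pituitary, had 2.49, 3.82 and 2.66. IRX4, an Iroquois homeobox factor of the heart ventricle, was intermediate with 0.304, 0.784 and 0.596. The second start of GATA2, a zinc finger factor of blood progenitors, had 0.659, 1.70 and 0.947. By edgeR 11 of 33 tested starts were above and 3 were below the mean, against 56.3% and 2.07% of all starts.

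Of the transcription factors of the kidney lineage, 11 of 35 were located and classed, with 4 unmodified, against 76.1% of all classed starts. Another 1 was intermediate, and 6 fell on different sides of a limit in different samples. PAX2, needed for the nephric duct, had 3.98, 3.12 and 2.06, WT1, a regulator of nephron progenitors and podocytes, had 2.82, 2.70 and 2.87, and the first start of GATA3, a factor of the collecting duct, had 0.721, 0.870 and 0.909. IRX1, an Iroquois homeobox factor, had 1.03, 0.993 and 0.0597, low in AA sample 2 alone. By edgeR 3 of 11 starts were above the mean and 1 was below, against 56.3% and 2.07% of all starts. The latter was FOXI1, a factor of intercalated cells named after its value was seen, with 0, 0.366 and 0. The medians were 1.35, 1.39 and 2.06.

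In the remaining lists few starts could be placed, and 76.1% of all classed starts were unmodified. Among imprinted genes 8 of 34 were located, and 6 of 8 classed starts were unmodified, among them WT1, given above, and IGF2R with 4.43, 2.71 and 3.14. Epithelial genes had 8 of 36 located and 5 of 7 classed starts unmodified, such as LAMA5, a laminin chain gene, with 5.51, 2.60 and 1.83. CLDN7, a tight junction claudin, was intermediate with 0.272, 0.688 and 0.555. By edgeR 3 of 8 tested epithelial starts were above the mean and 1 was below, against 56.3% and 2.07% of all starts. The latter was CLDN10, named after its value was seen, with 0.713, 0 and 0 (edgeR adjusted p = 0.0313). Both classed starts of mesenchymal genes were unmodified, ZEB1 with 3.73, 1.51 and 1.83 and TWIST2 with 2.08, 1.86 and 1.92. Neither passed the test (edgeR adjusted p = 0.0559 and 0.098). Of 4 classed starts of blood cell genes 2 were unmodified, RUNX1 with 17.5, 2.82 and 2.03 and CORO1A with 5.07, 1.87 and 2.19. Housekeeping genes had 4 classed starts, with 3 unmodified, GAPDH, LDHA and SDHA, of which LDHA did not pass the test (edgeR adjusted p = 0.0902). The 4 classed HOX starts (HOXD1, HOXD8, HOXD11 and HOXD13), the 3 of germline genes (NANOS3, PIWIL1 and SYCE1), the single one of the clustered protocadherins (PCDHGB6) and the single one of the secreted Wnt antagonists (IGFBP4) all fell on different sides of a limit in different samples. PIWIL1, a gene of germline small RNA silencing, was below 1 in all 3, with 0.00971, 0.311 and 0.0321, and was below the mean by the test (edgeR adjusted p = 0.00443).

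The landscape was also read, whether or not a start was located there, from CCGG clusters. These are runs of sites no more than 200 bases apart with at least 10 reference sites. Of 12248 clusters, 7549 had the tags to be classed, and 4572, or 60.6%, were unmodified in all 3 samples while 769, or 10.2%, were modified in all 3. Modified clusters were thus a larger share than modified promoters. A located promoter lay at 47.2% of the unmodified clusters and at 3.77% of the modified ones, and the median number of sites was 18 and 12. At 139 modified clusters no sample had an HpaII tag. In the edgeR test over 10990 clusters, 40% were above the genome mean and 12.7% below it.

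The unmodified cluster with most sites spanned chromosome 19, 1466907 to 1471128, with 81 reference sites and ratios of 1.84, 1.60 and 1.12. It did not pass the test (edgeR adjusted p = 0.159). A cluster on chromosome 2, 25563373 to 25565412, with 71 sites, holds the second start of DNMT3A and had 3.47, 3.33 and 1.99. Clusters with 75 and 70 sites lay at ZBTB7A, a zinc finger repressor, with 6.30, 3.94 and 4.21, and at CUX1, a homeobox factor, with 4.02, 3.32 and 5.56. The modified clusters with most sites were smaller. That on chromosome 7, 150811346 to 150813026, with 35 sites, lies at the second start of AGAP3 and had 0, 5 and 1 HpaII tags against 746.5, 324 and 293 MspI tags. Within 1 kb of that start the ratios were 0.00281, 0.204 and 0.00453, so the start itself was not classed as modified. On chromosome 22, 51158203 to 51160269, 40 sites had 0, 2 and 1 against 694, 243 and 223, and on chromosome 11, 400131 to 401792, 40 sites had 0.667, 2 and 1 against 273, 132 and 69.6. A cluster of 36 sites on chromosome 21, 45922551 to 45924644, had 1, 16 and 0 against 448, 159 and 272.

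Over 100 kb bins the test found 1736 of 18032, or 9.63%, above the genome mean and 4403, or 24.4%, below it. All 3 samples lay above the mean in 1730 of the former, and all 3 lay below it in 4400 of the latter. The median log2 difference over all tested bins was -0.97. Bins above the mean had a median of 106 reference sites, and 60.5% of them held a located promoter. Those below had 66 sites, 5.95% held a located promoter, and 1245 of them had no HpaII tag in any sample. Over all tested bins these values were 79 sites and 23.8%. Bins within 5 Mb of the first or last listed site of a chromosome made up 16.01% of the bins below, 8.76% of those above and 11.6% of all. The counts of calls depended on the samples: without AA sample 1 they were 798 above and 1271 below, without AA sample 2 they were 1000 and 1155, and without the control 2305 were below.

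Of the bins farthest above the mean, that at 99100001 to 99200000 of chromosome 1, with the start of SNX7, a sorting nexin, had 789, 300 and 362 HpaII tags against 83.3, 68.2 and 11 MspI tags. Its ratios were 21.4, 3.54 and 42.9, and the log2 difference was 3.89 ± 0.69 (SE, 3 pairs, edgeR adjusted p = 0.0019). The samples were far apart there, with AA sample 1 lowest, and all 3 lay above the mean. The bin at 18000001 to 18100000 of chromosome 2 holds KCNS3, a modulatory potassium channel subunit, and had 10.0, 3.43 and 8.27. That at 34100001 to 34200000 of chromosome 21, with SYNJ1, a phosphoinositide phosphatase of synapses, and PAXBP1-AS1, had 6.64, 2.61 and 16.8. The bin at 39600001 to 39700000 of chromosome 4, with SMIM14 and UBE2K, a ubiquitin-conjugating enzyme, had 7.09, 1.55 and 29.4. MKLN1-AS lay in the bin at 131000001 to 131100000 of chromosome 7, with 4.40, 5.81 and 15.0. In 3 others, at 67800001 to 67900000 of chromosome 18, 95400001 to 95500000 of chromosome 7 and 173100001 to 173200000 of chromosome 3, no located start was found. Ranking by the log2 difference can favour bins with few MspI tags. In AA sample 2 these 8 bins had from 11 to 46 of them, so its ratios there are imprecise.

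The 8 bins with the largest fold below the mean held no located promoter. Their ranking used a floor on the HpaII tags, so it favours bins with many MspI tags and sites. At 47400001 to 47500000 of chromosome 22, 183 reference sites gave 3, 10 and 2 HpaII tags against 2891, 1223 and 655 MspI tags. The log2 difference was -7.84 ± 0.47 (SE, 3 pairs, edgeR adjusted p = 5.18e-07), and all 3 samples were alike. At 2000001 to 2100000 of chromosome 7, 289 sites gave 6, 88 and 3 against 4262, 2080 and 1352, and at 80900001 to 81000000 of chromosome 17, 290 sites gave 2, 35.5 and 4.5 against 3002, 1434 and 972. At 23700001 to 23800000 of chromosome 2 there were 2, 5 and 0 against 1663, 754 and 370. At 177800001 to 177900000 of chromosome 5 there were 0, 16 and 0 against 1815, 1053 and 769. The bin at 56400001 to 56500000 of chromosome 7 had 3.6, 143 and 13.8 against 11051, 4208 and 3356, in counts that are not whole numbers. The other two lay at 99000001 to 99100000 of chromosome 13 and 400001 to 500000 of chromosome 10.

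By chromosome the ratios stayed close to 1. Chromosome 1 had 1.12, 1.17 and 1.28, chromosome 3 had 1.20, 1.14 and 1.13, and chromosome 16 was low in all 3 with 0.851, 0.864 and 0.839. The X chromosome was lowest in the control with 0.610, and had 0.876 and 0.951 in the AA samples. Among its tested bins 1.33% were above the genome mean and 16.3% below it, whereas the autosomes ranged from 6.33% to 12.6% and from 16.8% to 32.7%. Both shares were thus lowest on X. Of 91 classed starts on X, 36, or 39.6%, were unmodified, against 76.9% on the autosomes. Their median ratios were 1.41, 1.84 and 1.33, against 3.29, 2.83 and 2.42.

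**Figure D4:**
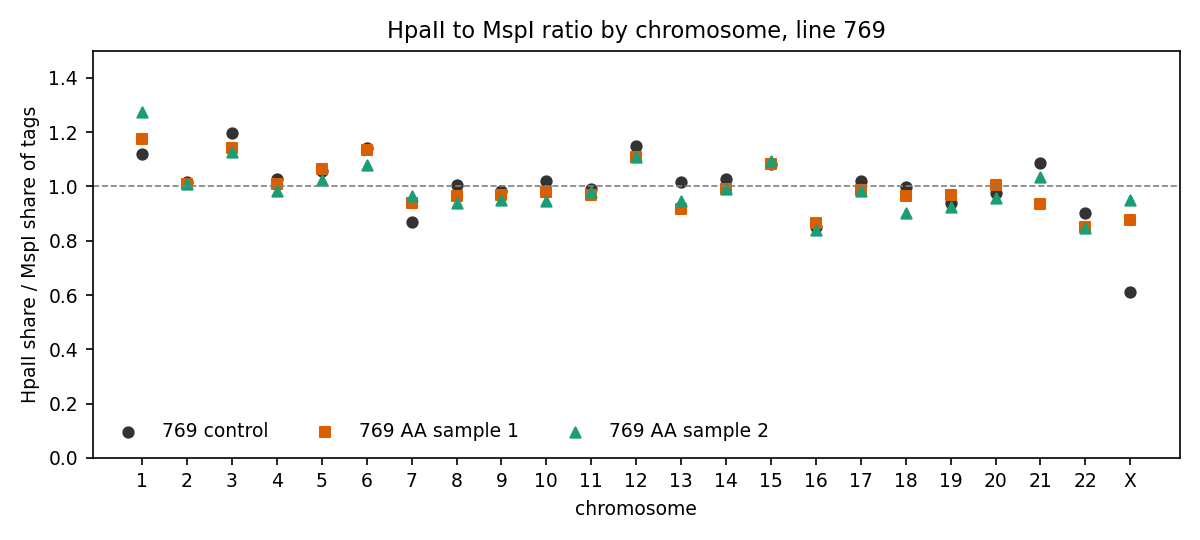
Ratio of HpaII to MspI tag shares (vertical axis) on each chromosome (horizontal axis), with 1 point per DNA sample of 769 and the genome-wide mean of 1 dashed. The control lies at 0.610 on X, and all other points lie between 0.839 and 1.28.

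Isolated sites, with at most 2 in their kilobase, differed in level between regions. In 305 windows of 1 Mb where every sample had 200 or more MspI tags at such sites and no site held over 50% of the tags, the ratio was taken against the mean of all isolated sites. It was above that mean in all 3 samples in 38 windows and below it in all 3 in 149, and in the other windows the samples were on different sides. Spearman's rho across windows was 0.54 to 0.62 between samples, a description over windows that share each sample's libraries. Ranked by the lowest of the 3 samples, the highest was at 114000001 to 115000000 of chromosome 12, with 9.46, 3.17 and 2.83, followed by 30000001 to 31000000 of chromosome 19, with 2.97, 3.13 and 2.65. Ranked by the highest of the 3, the lowest was at 32000001 to 33000000 of chromosome 2, with 0, 1 and 2 HpaII tags against 707, 278 and 276 MspI tags.

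Most promoter classes of 769 were also seen in line 786. In both AA samples of 786, 2850 unmodified starts were deep enough to be read, and 2607, or 91.5%, were unmodified there while 5 were modified. Of 41 modified starts that were deep enough, 24, or 58.5%, were modified in both and 1, RAB34, was unmodified in both. Over all 3672 such starts 84.4% were unmodified and 1.47% modified. At RAB34 the ratios were 0, 0.0280 and 0 in 769, and 0, 1.78 and 4.37 in 786. The control of 786 had 160231 nuclear HpaII tags against 8323623 MspI tags. Its 0 therefore cannot show whether it differed from its AA samples. The line difference of this start was 7.22 ± 1.70 on the log2 scale and did not pass the test (SE, 6 pairs in all, edgeR adjusted p = 0.0675).

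The test of the line difference over 5422 starts called 15, or 0.277%, of which 14 had the lower ratio in 786 and 1 the higher. At 3 of them no HpaII tag was found in any 786 sample, and the folds of these use a floor of 3 tags over the line. Tags overstate independent molecules, so these folds depend on the floor and are not firm bounds. LRFN4, a synaptic adhesion protein gene, had 1110, 812 and 657 HpaII tags in 769 and 0 in 786, against 169, 187 and 177 MspI tags there. At the floor its ratio was 454-fold higher in 769 (edgeR adjusted p = 8.69e-07). POPDC3, a Popeye domain gene, was 408-fold higher at the floor, with ratios of 5.49, 0.821 and 3.04 in 769. FMNL1-AS1 was 143-fold higher at the floor, with 1.67, 1.58 and 1.75. LRRC4, a gene of neuronal adhesion, had 395.5, 164 and 106 HpaII tags in 769 and 0, 0 and 1 in 786 (edgeR adjusted p = 0.000805). The lines did not overlap at any of the 15 called starts, which the choice of them makes likely, nor at 704 of all 5422 tested starts, or 13.0%.

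UTF1 had 1292, 645 and 446 HpaII tags against 644, 129 and 172 MspI tags within 1 kb in 769, which are ratios of 4.54, 4.03 and 3.38, and 0.822, 0.231 and 0.130 in 786. The log2 difference of 786 against 769 was -3.98 ± 0.68 (SE, 6 pairs in all, edgeR adjusted p = 0.00643). SALL3, a zinc finger factor of development, and LINC01896 share sites, and SALL3 had 1.81, 1.19 and 2.53 in 769 and 0, 0.0345 and 0.0587 in 786. GALNT17, a glycosyltransferase family member, had 2.29, 1.77 and 1.42, and 0, 0.111 and 0.0105 in 786. SMTN, a smooth muscle cytoskeletal gene, had 5.71, 3.42 and 1.97, and 0, 0 and 0.0237. GSC2, a goosecoid-related homeobox gene, had 3.54, 1.19 and 1.46, and 0, 0.0212 and 0.151. POPDC1, the neighbour and relative of POPDC3, had 3.48, 2.39 and 2.85, and 0, 0 and 0.138. FBN2 had 5.20, 3.63 and 4.74 against 0, 0.354 and 0.638. VWC2, a secreted BMP regulator, had 4.35, 2.06 and 2.91 against 0, 0.439 and 0.219, and the second start of TAFA5, a chemokine-like gene, had 4.95, 2.47 and 2.08 against 0.838, 0.219 and 0.207. The single start with the lower ratio in 769 was GRHL3-AS1, antisense to an epithelial transcription factor gene, with 0.0104, 0.213 and 0.135 against 2.94, 7.44 and 2.39.

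**Figure D5:**
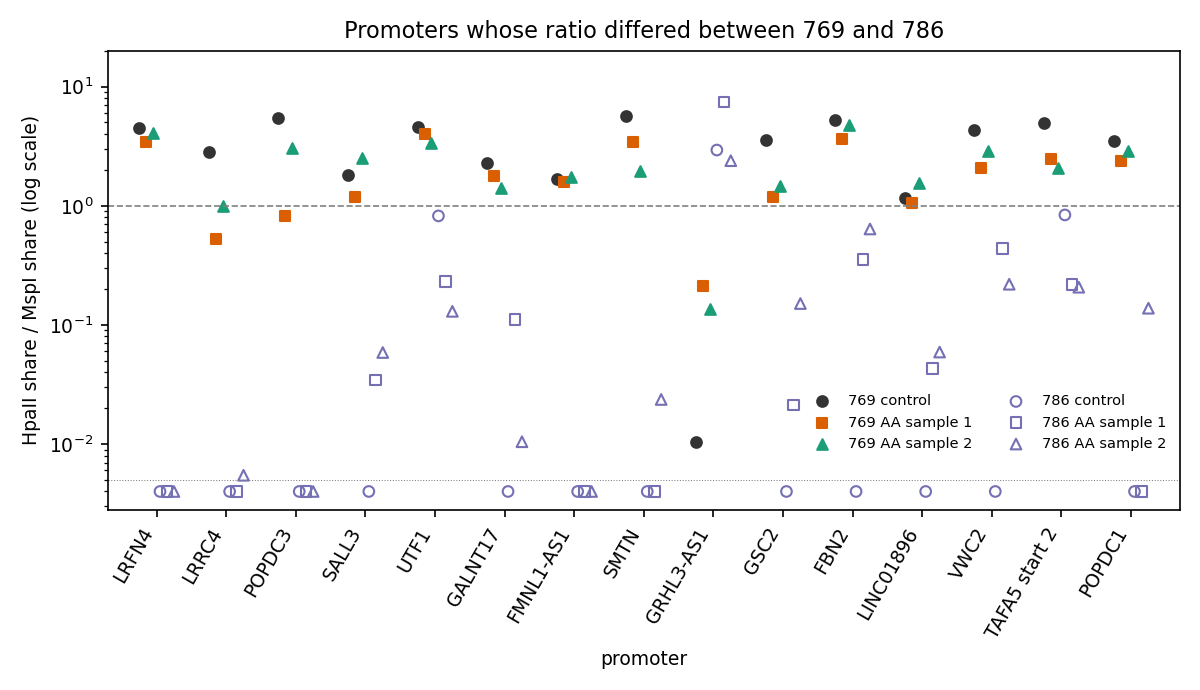
Ratio of HpaII to MspI tag shares (vertical axis, log scale) at the 15 promoters that differed between lines (horizontal axis), with filled symbols for the 3 samples of 769 and open symbols for those of 786. Points under the dotted line are at a ratio of 0. The samples of 769 and 786 do not overlap at any of the 15, which were chosen by the test of that difference.

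These 15 calls were not equally firm. All 15 passed without the shallow 786 control. Of the 15, 8 passed without the 769 control, 4 without 769 AA sample 1, 10 without 769 AA sample 2, 3 without 786 AA sample 1 and 8 without 786 AA sample 2. LRFN4 and LRRC4 passed with each sample left out in turn. Over 100 kb bins 119 of 16726, or 0.711%, differed between the lines, with the ratio higher in 786 at 103 and lower at 16. That count was 12 without the 786 control, 429 without the 769 control, 354 without 769 AA sample 1 and 214 without 786 AA sample 1.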

How the data were processed

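Genomic DNA of 6 DNA samples was cut with HpaII and with MspI, per the labels, and the tags beside the cuts were amplified in 18 PCR cycles. The deposited values are expected counts of tags per CCGG site, made by the authors, with counts of tags that align to several places split between them, and they are not normalized. Site positions are in build hg19, according to the submitters' processing notes. The name of the aligner was not given in the sources used here. Only chromosomes 1 to 22 and X were used, and library size was the sum of their tags. The members and gene lists were chosen with earlier results of these data known.

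Tags were summed in 100 kb bins, in clusters and within 1 kb of gene starts, and rounded to whole numbers for the tests. Of 8329 promoter windows with at least 4 CCGG sites, 6855 matched a single place by exact spacing of sites, 17 of these lay on another chromosome than RefSeq gives and were dropped, and 6838 were kept. Starts of a gene within 1 kb were merged. No coordinate was converted between builds, and other starts were not analysed here. edgeR 4.0.16 (R 4.3.3) fitted the enzyme with the DNA sample as a block, which pairs the libraries by the DNA they share, on features with at least 10 MspI tags in each MspI library, without TMM, and with 2 residual degrees of freedom. Benjamini-Hochberg adjustment of p-values ran over all features of a kind. The line difference was the enzyme by line term over 12 libraries, with 4 residual degrees of freedom. Tested on simulated data with 200 of 18032 bins changed 8-fold, the fit of HpaII against MspI in 769 recovered 70%, and 3 of 143 calls were false. The simulated counts were drawn from the mean MspI shares with a dispersion of 0.3, without differences between DNA samples. The changed bins were among the deeper ones. These rates therefore need not hold for the data, where far more bins were called. Classes have no test of their own. Sums, classes and figures were made in Python 3.11.15 (pandas 2.3.3, numpy 2.4.6, matplotlib 3.10.9).

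Bins were named as the 8 with the largest difference above the mean among those called, with at least 5 HpaII sites and no site over 50% of the tags, and the 8 with the largest fold below it at a floor of 3 tags. Clusters were the 6 of each class with most sites, and promoters the 10 of each class with most MspI tags and list members, up to 6 a list. All 15 starts that differed between lines were named. Alternatives were other scalings, DESeq2 1.42.0, other filters and limits, thinned libraries, 1 Mb bins, no block and leaving out each DNA sample. Those for the tests over promoters were added after seeing the data.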

Additional observations from a re-analysis of the deposited data

Results flagged for a closer look

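The HpaII to MspI ratio differed between 769 and 786, by the test of the difference itself, in 119 bins of 100 kb and at 15 promoters. Of the 15 promoters 14 had the lower ratio in 786 (edgeR adjusted p under 0.05 with the DNA sample as a block). The control HpaII library of 786 is the shallowest of the series, and without it the 15 promoters all passed while the bins fell to 12.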

How the results depend on the processing

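Counts that moved by more than 1.5 times are given here, and the cause was not tested unless the setting itself tests fewer features or samples. Bins above the mean (1736) were 554 in 1 Mb bins, of which 2878 were tested. Bins below it (4403) were 6666 with DESeq2, 939 with at least 10 tags in all 6 libraries, 2302 after thinning and 511 in 1 Mb bins. Leaving out each sample in turn gave 798 to 1585 bins above and 1155 to 2305 below. The bins that differed between lines (119) were 1075 with DESeq2, 39 with at least 10 tags in every library and 12 to 429 with a sample left out.

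Unmodified promoters (3119) were 1716 at limits of 2 and 0.05, and 581 where at least 100 HpaII tags were expected, which left 712 starts. Modified promoters (50) were 4 at that minimum, 30 after thinning and 64 to 82 with a sample left out. Unmodified clusters (4572) were 2418 at limits of 2 and 0.05, 856 with at least 100 tags expected and 1921 with gaps of at most 100 bases, and modified clusters (769) were 139 and 147 under the last pair of settings. Promoters above the mean (3261) were 3 with TMM and 2005 to 3094 with a sample left out, and those below (120) were 201 with DESeq2. Promoters that differed between lines (15) were 75 with DESeq2 and 3 to 22 with a sample left out, and with TMM POPDC1 (edgeR adjusted p = 0.0592) and VWC2 (0.054) no longer passed.

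The libraries are paired by DNA sample. Without the replicate block, bins above and below were 2112 and 5141, promoters above and below were 3589 and 136, and line differences rose to 794 bins and 38 promoters. Precision is limited by 2 residual degrees of freedom, by a 786 control of 189704 HpaII tags, and by 9.22 to 47.9 tags per listed site in 769.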
